A study of Mus musculus with 23 samples.

Results

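Chemokine genes were followed through 23 RNA sequencing libraries of mouse lung and lung tumour. They were taken by symbol as every row named Ccl, Cxcl, Cx3cl or Xcl with a number and nothing after it. This gave 34 of the 24411 genes in the tables and left out symbols that end in a letter, such as Ccl21a. All mice were C57BL/6, untreated and kept in a barrier facility. Lungs of wild-type mice (WT) and of mice lacking Rarres1 (KO) came from embryos at embryonic day 19.5 (E19.5; 3 WT, 3 KO) and from males at 10 months (3 WT, 3 KO) and 18 months (3 WT lungs and 5 KO lungs labelled as non-tumour). The last group was 3 lung tumours of 18-month-old KO males. The labels used here do not give the embryos' sex, the allele, the cells in which Rarres1 was deleted, or the histology of the tumours. By their sample codes the KO non-tumour lungs were numbers 1, 2, 3, 6 and 7 and the tumours 1, 3 and 6, while the titles count the non-tumour lungs from 1 to 5. Equal codes were taken as the same animal, which no label states, so every pairing of tumour and lung below, for 3 animals, rests on the codes. WT tumours were not part of the design, so tumour and genotype cannot be told apart in the comparison of tumours with WT lung. The labels list the other replicates as separate samples and say no more, so a p-value here reflects sample-to-sample spread, which may in part be technical.

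Chemokines are small secreted or membrane-bound proteins that steer leukocytes by binding G-protein-coupled receptors. They are named C, CC, CXC and CX3C after the spacing of their first cysteines. Homeostatic members such as Cxcl12, Cxcl13 and Ccl19 position cells in tissue, and inflammatory members such as Cxcl1, Cxcl2, Ccl2 and Cxcl10 are induced by NF-kB or interferon signalling. Lung epithelium is known for its own members, among them Cxcl15 (lungkine) and Cxcl17, and Rarres1 is a retinoid-induced gene studied as a tumour suppressor.

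Libraries held 23.66 to 46.57 M (mega) counts and 17318 to 17890 genes with at least 1 count. Rarres1 had 24 to 64 reads in the 9 WT libraries and 0 to 1 in the 14 KO libraries. Type 2 epithelial markers summed to at least 23220 FPKM (a level that the authors scaled for gene length and depth) in every library. One library stood apart early: WT embryo 3 held 731 summed FPKM of basal and squamous epithelium markers, against at most 50.7 in the other embryos. The RNA is from whole tissue, so fewer cells of a type and less RNA per cell cannot be told apart.

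One gene dominated the family. Cxcl15, a neutrophil-attracting chemokine of lung epithelium, averaged 980.0 FPKM over all libraries, 62.7% of the summed mean FPKM of all members. The share and the ranking cover the 34 members only. Ccl21a, a chemokine outside the naming pattern, was at 38.3 FPKM (KO embryo 3) to 212 FPKM (KO lung 1 at 10 months). Among members, next came Ccl6, a macrophage-derived ligand of Ccr1, at 193 FPKM, and Cxcl12, the stromal ligand of Cxcr4, at 76.1 FPKM. Ccl5, made by T and NK cells, averaged 68.8 FPKM, and Cxcl14, an epithelial and stromal chemokine, 61.5 FPKM. Cxcl17, a mucosal chemokine, stood at 45.2 FPKM and Cxcl16, the membrane-anchored ligand of Cxcr6, at 28.3 FPKM. Cx3cl1, the membrane-anchored ligand of Cx3cr1, averaged 20.3 FPKM, Ccl8 17.9 FPKM and Ccl17, a Ccr4 ligand of dendritic cells, 15.9 FPKM. The lowest detected member was Cxcl11, a Cxcr3 ligand, at 0.0226 FPKM. A mean of 1 FPKM was reached by 26 members, or 76.5%, against 55.9% of all genes. Ccl26 had no read in any library, and Ccl1, a Ccr8 ligand, had a read in 8 of 23 libraries.

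**Figure D1:**
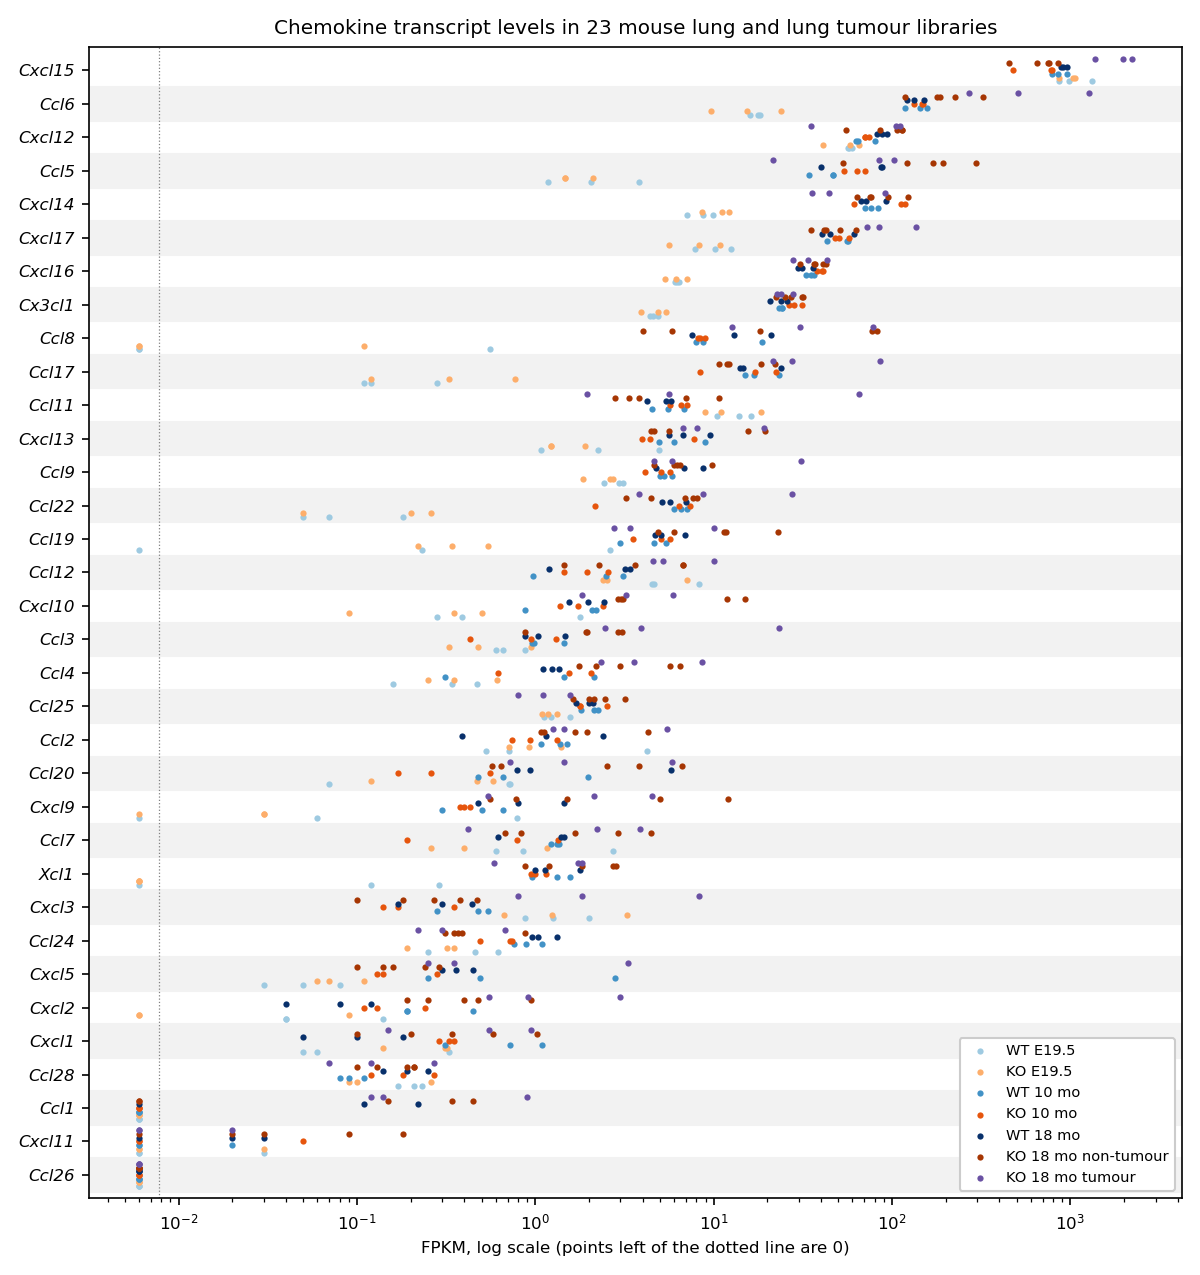
Level of each of the 34 chemokines in each library, in FPKM on a log axis, with 1 point per library coloured by group and genes ordered by mean level. Cxcl15 leads at 453 to 2224 FPKM, embryonic points lie left of adult ones for Ccl6, Ccl5, Ccl17 and Ccl22, and the 3 tumour points lie farthest right for Cxcl15.

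The group with the highest mean was the tumours for 18 of the 34 members and the KO non-tumour lungs at 18 months for 9. These ranks are descriptions of group means and were not counted over all genes, so they are not shown to be particular to chemokines. A mean can rest on 1 library, as for Ccl11 in tumours 1, 3 and 6 (65.3, 1.96 and 5.6 FPKM). The tests of the differences follow.

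Of the 34 genes, 24 lie in 6 clusters in which neighbours are less than 500000 bases apart (RefSeq, GRCm38.p6, the build of the counts). Chromosome 5 holds Cxcl5, Cxcl3, Cxcl15, Cxcl1 and Cxcl2 within 147 kb (90759298 to 90905938), and further on the Cxcr3 ligands Cxcl9, Cxcl10 and Cxcl11 within 42.0 kb. Chromosome 11 holds a run from Ccl2 to Ccl1 with Ccl7, Ccl11, Ccl12 and Ccl8, and a run of Ccl5, Ccl9, Ccl6, Ccl3 and Ccl4 within 139 kb. On chromosome 8, Ccl22, Cx3cl1 and Ccl17 lie within 66.4 kb. Cxcl10 and Cxcl11 overlap Art3, and Ccl2, Ccl19, Ccl25 and Cxcl16 also overlap another protein-coding gene. The strand setting of the counting is not given in the sources used here, so reads of such overlaps cannot be told apart.

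The start regions of 4 genes of the Cxcl5 to Cxcl2 cluster are shown because 3 genes of the cluster were called in tumours against KO lung (below). That of Cxcl10 is shown as an interferon-induced member with uneven levels among aged KO lungs. Of the 4, Cxcl1 and Cxcl2 were not called in that comparison, and a link of promoter letters to levels was not tested. Sequences are RefSeq promoters of GRCm38.p6, found for 23 of the 34 members. They are given 5′ to 3′ on the gene's strand and cover the 120 bases before the start site, or bases -220 to -61 for Cxcl10. Capitals mark matches to TATAAA, to the NF-kB consensus (the kB site) and to the interferon response pattern, TTTC and TTTC with any 2 bases between them. The kB and interferon patterns were searched on both strands and TATAAA on the gene's strand, over 300 bases around each start.
Cxcl3 (chr5:90785981-90786100, plus strand): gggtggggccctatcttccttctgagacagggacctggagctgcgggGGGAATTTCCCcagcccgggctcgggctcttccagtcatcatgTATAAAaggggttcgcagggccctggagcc
Cxcl1 (chr5:90891125-90891244, plus strand): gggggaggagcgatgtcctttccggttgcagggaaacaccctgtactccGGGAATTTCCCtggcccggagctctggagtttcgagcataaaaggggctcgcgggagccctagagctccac
Cxcl2 (chr5:90903779-90903898, plus strand): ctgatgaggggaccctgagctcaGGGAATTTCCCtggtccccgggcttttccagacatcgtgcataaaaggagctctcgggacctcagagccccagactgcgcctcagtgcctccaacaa
Cxcl15 (chr5:90794414-90794533, plus strand): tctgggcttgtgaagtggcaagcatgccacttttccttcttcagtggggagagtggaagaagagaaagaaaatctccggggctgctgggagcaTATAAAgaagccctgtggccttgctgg
Cxcl10 (chr5:92348950-92349109, minus strand): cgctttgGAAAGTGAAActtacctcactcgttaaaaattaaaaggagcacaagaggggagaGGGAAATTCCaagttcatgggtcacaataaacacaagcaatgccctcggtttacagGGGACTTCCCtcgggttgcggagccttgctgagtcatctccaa

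Cxcl3, Cxcl1 and Cxcl2 carried the same 11 letters, read as 2 overlapping kB matches, beginning 73, 71 and 97 bases before the start. Cxcl15 had no kB match in its 300-base window and a TATAAA 27 bases before the start. Cxcl10 had the interferon pattern at -213 and kB matches at -159 and -103. Among 32851 promoters, 4.51% held a kB match, 8.32% TATAAA and 3.44% the interferon pattern. Of the 24 promoters of 23 members, 6, 9 and 3 did. Matches describe letters only.

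Between E19.5 and 10 months, Ccl17, Ccl22, Ccl5, Cxcl14, Ccl6, Cxcl16, Cx3cl1 and Cxcl17 rose in WT and in KO lung, and Ccl11 and Cxcl3 fell in both. In WT, 27 members passed the low-count filter and 14 were called higher and 4 lower at 10 months, where calls covered 62.8% of all genes tested (31.6% higher, 31.2% lower). The median log2 difference of those 27 was 1.1, beside 0 over all genes tested. The share of WT members called in either direction was thus near that of all genes. In KO, 25 passed and 17 were called higher and 2 lower, against 60.5% of all genes (31.1% higher, 29.4% lower). In both genotypes the members' calls were mostly higher, while those of all genes were split nearly evenly. This lean was not tested. A call is a Benjamini-Hochberg adjusted p under 0.05 in edgeR's quasi-likelihood test. The higher calls had 13 members in common, 92.9% of those in WT and 76.5% of those in KO.

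The membrane-anchored pair came first by adjusted p in WT. Cx3cl1 was at 4.59, 4.89 and 4.41 FPKM in WT embryos and 23.3, 24 and 24.3 at 10 months, and at 4.87, 5.42 and 3.91 and 31.3, 26.6 and 28.3 FPKM in KO. Every adult lung lay above every embryo, and the log2 rise was 2.42 ± 0.07 (SE) in WT (adjusted p = 3.47e-08) and 2.66 ± 0.12 in KO (adjusted p = 9.52e-07). Cxcl16 went from 6.1, 6.21 and 6.43 to 33, 36.7 and 35 FPKM in WT and from 7.1, 5.31 and 6.16 to 37.9, 40.9 and 40.5 in KO. Its log2 rise was 2.54 ± 0.08 in WT and 2.73 ± 0.11 in KO, again with no overlap between the ages.

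Epithelial and stromal members followed. Cxcl14 rose from 9.9, 8.74 and 7.09 FPKM in WT embryos to 83.4, 70.5 and 76.4, by 3.21 ± 0.12 on the log2 scale (adjusted p = 1.43e-07). KO values were 12.1, 8.65 and 11.1 and 118, 61.5 and 112 FPKM. Cxcl17 rose from 10.1, 7.83 and 12.5 to 56.7, 43.2 and 56.1 FPKM in WT, a log2 rise of 2.42 ± 0.18 (adjusted p = 6.8e-06), and from 8.22, 5.64 and 10.9 to 50.4, 57.1 and 47.7 in KO, a rise of 2.70 ± 0.22. In neither gene did an adult lung reach down to an embryo. Cxcl12 was called higher by a smaller step, 0.51 ± 0.10 in WT and 0.61 ± 0.13 in KO, and both calls were lost in a fit over all 23 libraries (adjusted p = 0.137 and 0.0791). Cxcl15 was already at 1314, 984 and 861 FPKM in WT embryos and stayed uncalled at 10 months (788, 955 and 851 FPKM; adjusted p = 0.262). In KO it went from 1054, 858 and 1037 to 783, 478 and 791 FPKM without overlap and missed the threshold (log2 -0.47 ± 0.19, adjusted p = 0.0632), although DESeq2 called it lower (adjusted p = 0.0127).

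Members known from leukocytes were among those that rose. Ccl6 rose from 17.7, 16 and 18.2 to 118, 156 and 144 FPKM in WT, by 3.07 ± 0.12 on the log2 scale (adjusted p = 2.18e-07). Ccl5 went from 2.06, 1.18 and 3.79 to 46.6, 46.9 and 34.4 FPKM in WT (log2 4.27 ± 0.34, adjusted p = 1.93e-05) and from 1.47, 2.1 and 1.46 to 53.8, 70.2 and 63.2 in KO (log2 5.25 ± 0.20, adjusted p = 4.49e-07). The Ccr4 ligands Ccl17 and Ccl22 were nearly absent before birth. Ccl17 was at 0.11, 0.12 and 0.28 FPKM in WT embryos and 16.9, 23.1 and 15.1 at 10 months, and its 4 pooled embryonic reads against 504 gave a ratio of 112 per depth (95% binomial interval 43.3 to 411, counting error only). Ccl22 rose from 0.07, 0.05 and 0.18 to 6.56, 7.04 and 6.02 FPKM in WT, by 6.10 ± 0.32 on the log2 scale. In KO embryos Ccl17 was at 0.33, 0.12 and 0.77 FPKM and in KO adults at 22.4, 8.41 and 17, a log2 rise of 5.30 ± 0.57 (adjusted p = 0.000102). Ccl8 had 1 read in all 3 KO embryos and 230 at 10 months, a ratio of 208 (interval 36.9 to 8235).

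T and NK cell markers moved with these genes: 13 of 14 tested were called higher in each genotype, and their summed level went from 6.33 to 9.74 FPKM in WT embryos to 69.7 to 82.0 at 10 months. Alveolar macrophage markers did too, with 11 of 13 called higher in each genotype and sums of 184 to 337 FPKM in WT embryos against 952 to 1120 at 10 months. In KO, sums of the former went from 4.90 to 7.69 FPKM up to 85.2 to 91.8, and of the latter from 187 to 230 FPKM up to 923 to 1326. No measured marker of either list was at 0 throughout a group, and the part of cell numbers in the chemokine changes was not tested.

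Ccl11 (eotaxin-1, a Ccr3 ligand of eosinophils) and Cxcl3 (a Cxcr2 ligand of neutrophils) went the other way. Ccl11 fell from 10.4, 13.9 and 16.3 FPKM to 6.84, 4.53 and 5.51 in WT (log2 -1.20 ± 0.19, adjusted p = 0.000518) and from 10.9, 8.94 and 18.3 to 5.71, 7.08 and 6.54 in KO (log2 -0.94 ± 0.27, adjusted p = 0.0189). Cxcl3 fell from 2.0, 1.25 and 0.88 to 0.54, 0.28 and 0.48 FPKM in WT (log2 -1.60 ± 0.42, adjusted p = 0.00767) and from 1.24, 0.67 and 3.25 to 0.35, 0.14 and 0.17 in KO (log2 -2.87 ± 0.70, adjusted p = 0.00785). Adults and embryos did not overlap for either gene, but Cxcl3 had only 9, 3 and 4 reads in the KO adults. Ccl12, a monocyte-attracting Ccr2 ligand, also fell in WT, by 1.31 on the log2 scale (adjusted p = 0.0223). In the fit over all 23 libraries the Ccl11 calls were lost in both genotypes (adjusted p = 0.204 in WT and 0.314 in KO), and so were those of Cxcl3 and Ccl12 in WT (0.0795 and 0.068).

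Of the higher calls, Cxcl9, Cxcl10, Cxcl13 and Ccl19 were made in KO and not in WT, where 1 embryo stood apart. Cxcl9, an interferon-induced Cxcr3 ligand, was at 0, 0.06 and 0.79 FPKM in WT embryos and 0.03, 0.03 and 0 in KO embryos, with WT embryo 3 the high one. The same embryo was highest of the WT embryos in Cxcl10 (0.28, 0.39 and 1.79 FPKM), Ccl19 (0, 0.23 and 2.63 FPKM) and Ccl2 (0.53, 0.71 and 4.22 FPKM), and held the squamous markers named above. Cxcl9 rose in KO by 4.36 ± 0.52 on the log2 scale (adjusted p = 0.000138) and was not called in WT (adjusted p = 0.587). The KO rise rests on 4 pooled embryonic reads against 95, a ratio of 21.4 per depth (95% binomial interval 8.10 to 80.3). Ccl19, the Ccr7 ligand, rose in KO from 0.34, 0.22 and 0.54 to 5.08, 3.51 and 5.71 FPKM (log2 3.72 ± 0.37, adjusted p = 5.6e-05). Without WT embryo 3 the WT count went from 18 to 22 and then held Cxcl9 (4.14, adjusted p = 0.00155), Cxcl10 (2.42, 0.00243) and Ccl19 (5.28, 0.000153). The interaction of age and genotype called 0 of 28 members, against 0.156% of all genes (0.0625% higher, 0.0938% lower), and DESeq2 called 0 members. Its unadjusted p was under 0.05 for 2 members and for 1215 of 15994 genes. A difference between the genotypes in any chemokine's course was thus not shown.

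**Figure D2:**
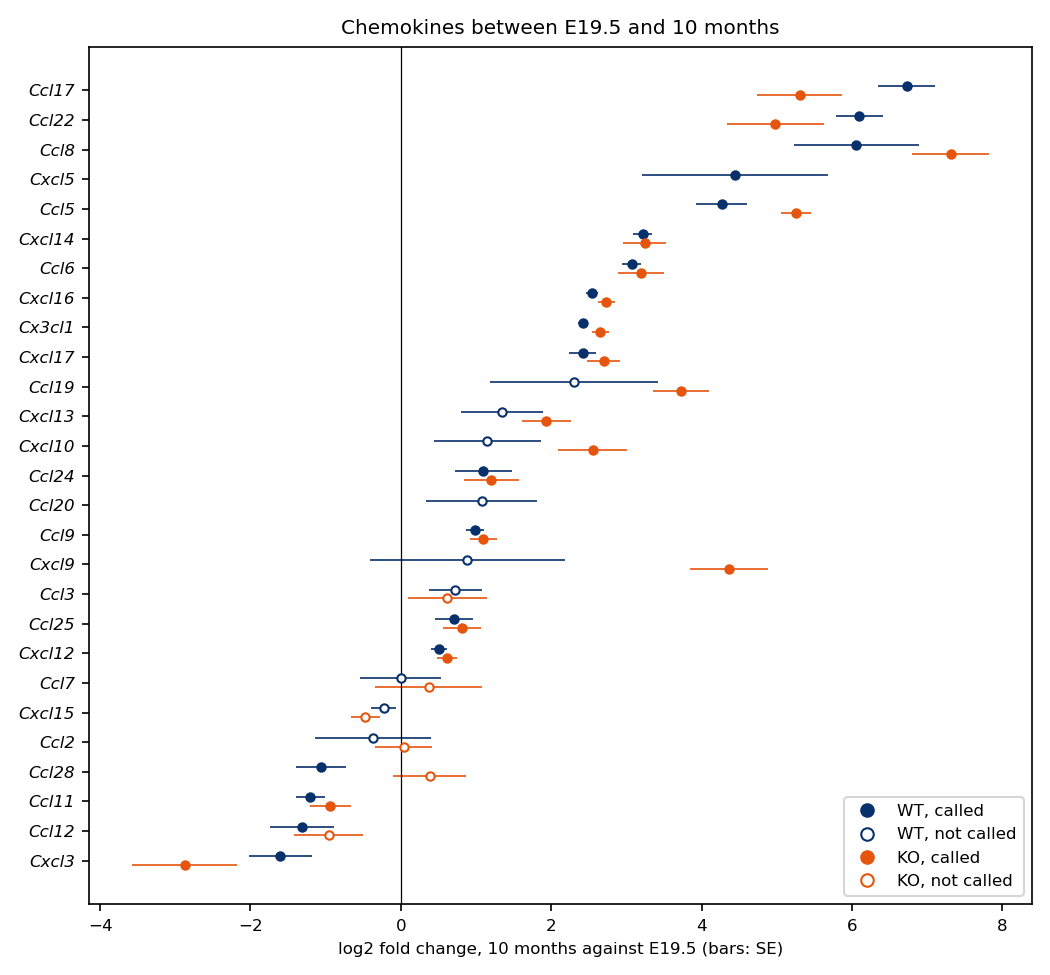
Log2 fold change of each tested chemokine between E19.5 and 10 months in WT and KO lung, with SE bars; filled points were called and open points were not. Ccl17, Ccl22, Ccl8 and Ccl5 lie beyond 4 in both genotypes, and Ccl11 and Cxcl3 lie below 0 in both.

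Receptors were counted over the same ages. Of 23 receptor genes, 21 were tested and 16 were called higher at 10 months in each genotype, with none lower. Matches of receptor and ligand were not tested, and some ligands of receptors named here, such as Ccl12 for Ccr2, fell or were not called. Ccr7, the receptor of Ccl19, was at 0.21, 0.11 and 0.40 FPKM in WT embryos and 9.85, 8.2 and 8.07 at 10 months (log2 5.26 ± 0.31, adjusted p = 2.54e-06). Ccr2 rose in WT by 1.21 ± 0.08, Ccrl2, an atypical receptor that binds chemerin, by 1.39 ± 0.09 and Ccr6, the receptor of Ccl20, by 4.45 ± 0.37. In KO the smallest adjusted p values were those of Cxcr6 (4.23 ± 0.23), Ccr7 (5.89 ± 0.32), Cxcr5 (6.21 ± 0.36), Ccrl2 (1.17 ± 0.10) and Cxcr3 (3.71 ± 0.37).

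Loss of Rarres1 changed no chemokine past the threshold at any age. At E19.5, 0 of 17 tested members were called, as were 0% of all genes, and DESeq2 called 0. An unadjusted p under 0.05 was found for 0 members and for 144 of 15307 genes. The smallest p values belonged to Cxcl14, at 9.9, 8.74 and 7.09 FPKM in WT and 12.1, 8.65 and 11.1 in KO (log2 0.33 ± 0.16), and to Cxcl13, the Cxcr5 ligand of B cells, at 1.07, 2.24 and 4.93 and 1.23, 1.22 and 1.89 FPKM (-0.89 ± 0.52). Ccl7 was at -1.09 ± 0.71 and Ccl9 at -0.22 ± 0.18. All 4 had an adjusted p of 0.9999 and overlapping genotypes, and without WT embryo 3 the count was also 0.

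At 10 months, 0 of 27 tested members were called, against 1.52% of all genes (0.574% higher, 0.946% lower). An unadjusted p under 0.05 was found for 4 of the 27 members and for 2670 of 15324 genes. Those 4 were higher in every KO lung than in every WT lung, and the share of all genes without overlap was not counted. Cx3cl1 was at 23.3, 24 and 24.3 FPKM in WT and 31.3, 26.6 and 28.3 in KO, a log2 difference of 0.26 ± 0.07 (adjusted p = 0.0961). Ccl5 was at 46.6, 46.9 and 34.4 FPKM in WT and 53.8, 70.2 and 63.2 in KO, a difference of 0.56 ± 0.15 (adjusted p = 0.1246). DESeq2 called both, at adjusted p of 0.0365 for Cx3cl1 and 0.0207 for Ccl5. Cxcl16 differed by 0.18 ± 0.07 (adjusted p = 0.208) and Ccl28, a mucosal chemokine at 0.11, 0.08 and 0.09 FPKM in WT and 0.12, 0.27 and 0.18 in KO, by 1.01 ± 0.39 (adjusted p = 0.229). Cxcl14 was called higher in KO only when KO lung 2 was left out (0.57, adjusted p = 0.0113), which lay at 61.5 FPKM against 118 and 112 in the other KO lungs.

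At 18 months, 0 of 28 tested members were called, against 0.0776% of all genes (0.0453% higher, 0.0323% lower), and DESeq2 called 0. An unadjusted p under 0.05 was found for 6 members and for 1243 of 15463 genes. Ccl24 (eotaxin-2, a Ccr3 ligand) was at 1.03, 1.33 and 0.96 FPKM in WT and 0.35, 0.39, 0.37, 0.87 and 0.31 in KO lungs 1, 2, 3, 6 and 7, so that all KO lungs lay lower (log2 -1.34 ± 0.35, adjusted p = 0.299). Ccl4, a chemokine made by activated T, NK and myeloid cells, was at 1.24, 1.1 and 1.35 FPKM in WT and 5.71, 1.75, 3.0, 6.45 and 2.2 in KO, all higher (log2 1.55 ± 0.47, adjusted p = 0.396). Cxcl5, a Cxcr2 ligand, was at 0.30, 0.45 and 0.36 and 0.14, 0.16, 0.10, 0.24 and 0.29 FPKM, all KO lungs lower (log2 -1.09 ± 0.37, adjusted p = 0.44). Cxcl10, the second Cxcr3 ligand, was at 1.54, 1.97 and 2.44 FPKM in WT and 15, 2.91, 3.11, 11.9 and 3.03 in KO (log2 1.79 ± 0.63, adjusted p = 0.462). The groups did not overlap for Cxcl10, and KO lungs 1 and 6 lay far above the other 3. These 4 members were named for their small p values, and the share of all genes without overlap was not counted. The difference between the genotype effects at 18 and 10 months called 0 of 31 members and 0% of all genes, and DESeq2 called 0 members. Its unadjusted p was under 0.05 for 3 members and for 453 of 15653 genes.

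**Figure D3:**
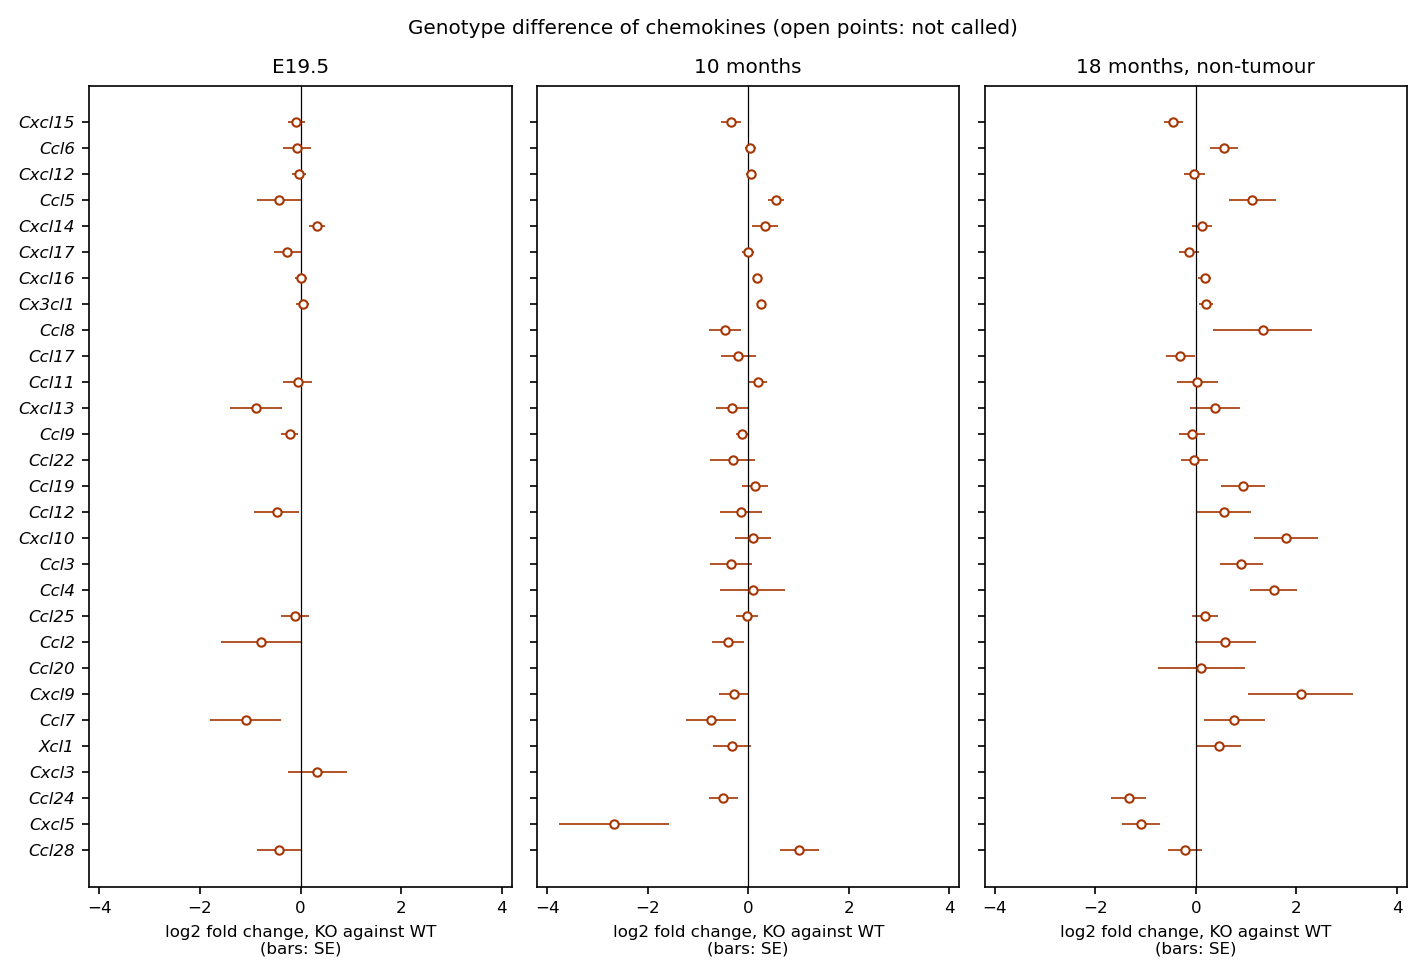
Log2 fold change of KO against WT for each tested chemokine at E19.5, 10 months and 18 months (non-tumour), with SE bars and genes ordered by mean level. All points are open, since none was called, and the SE bars are longest for Cxcl9 and Ccl8 at 18 months and Cxcl5 at 10 months.

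The 5 aged KO lungs were uneven in a set of immune chemokines, chosen for description after their values were seen. KO lungs 1 and 6 were the highest pair for Cxcl9, at 12, 0.56, 0.78, 5.01 and 1.5 FPKM in lungs 1, 2, 3, 6 and 7, against 0.48, 0.80 and 1.45 in WT. The same pair led in Ccl8, a monocyte- and T-cell-attracting chemokine, at 77, 4.03, 5.84, 82.6 and 18.2 FPKM, against 7.51, 20.9 and 13 in WT. Cxcl13 was at 19.3, 4.61, 4.44, 15.5 and 5.62 FPKM in KO and 6.73, 9.51 and 5.62 in WT, again with lungs 1 and 6 above all others. Ccl19 was highest in lung 6, at 11.7, 4.86, 6.01, 22.8 and 11.5 FPKM over the 5 KO lungs and 4.67, 6.87 and 5.07 in WT. Ccl5 stood at 295, 53.2, 121, 193 and 169.7 FPKM in KO and 40.0, 88 and 87 in WT, with KO lung 2 inside the WT range. Lung 1 was the highest of the 8 non-tumour lungs at 18 months in 12 of 25 members compared, or 48.0%, and in 10.2% of 13444 genes. Members and genes compared had a mean of at least 1 FPKM over those 8 lungs, so a high value in 1 lung can bring a gene in. Lung 6 was highest in 8 members, or 32.0%, and in 27.6% of genes.

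Interferon response genes other than chemokines and T and NK cell markers stood high in the same 2 lungs. Summed interferon response genes were at 833, 573, 591, 937 and 642 FPKM in KO lungs 1, 2, 3, 6 and 7, and at 484, 560 and 567 in WT. T and NK cell markers summed to 188, 74.5, 126, 154 and 121 FPKM in KO and 67.9, 108 and 98.6 in WT, with no marker at 0 in either group, and none of 14 was called. Cxcr3, the receptor of Cxcl9 and Cxcl10, was at 10.1, 2.52, 5.04, 6.76 and 6.43 FPKM in KO and 2.68, 3.59 and 4.42 in WT. The part of these cells in the chemokine levels was not tested.

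Ageing from 10 to 18 months gave no call in either genotype. In WT, 0 of 29 members and 0% of all genes were called, and DESeq2 called 0. An unadjusted p under 0.05 was found for 2 members and for 833 of 15321 genes. Cxcl12 was at 80.2, 63.1 and 64.3 FPKM at 10 months and 93.2, 87.9 and 82.1 at 18 months, higher in every older lung (log2 0.39 ± 0.11, adjusted p = 0.866), and Ccl28 also without overlap (log2 1.04 ± 0.34). Cxcl9 (0.89 ± 0.43) and Ccl5 (0.79 ± 0.34) overlapped between the ages, all 3 with an adjusted p of 0.891. Ccl5 was called without WT lung 1 of 18 months (1.07, adjusted p = 0.0429), the lowest of the 3. In KO, 0 of 27 members and 0% of all genes were called, and DESeq2 called 0. An unadjusted p under 0.05 was found for 7 members and for 782 of 15455 genes. Ccl20, the Ccr6 ligand, was at 0.26, 0.56 and 0.17 FPKM at 10 months and 6.65, 0.64, 0.57, 3.79 and 2.52 at 18 months without overlap (log2 3.03 ± 0.93). Its 10-month values rest on only 5, 9 and 3 reads. Cxcl9 (3.27 ± 1.13), Cxcl10 (1.93 ± 0.65) and Ccl5 (1.36 ± 0.44) came next, all 4 with an adjusted p of 0.893. Ccl5 was the only one of the 4 to overlap between the ages. For neither genotype was the share of all genes without overlap counted.

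**Figure D4:**
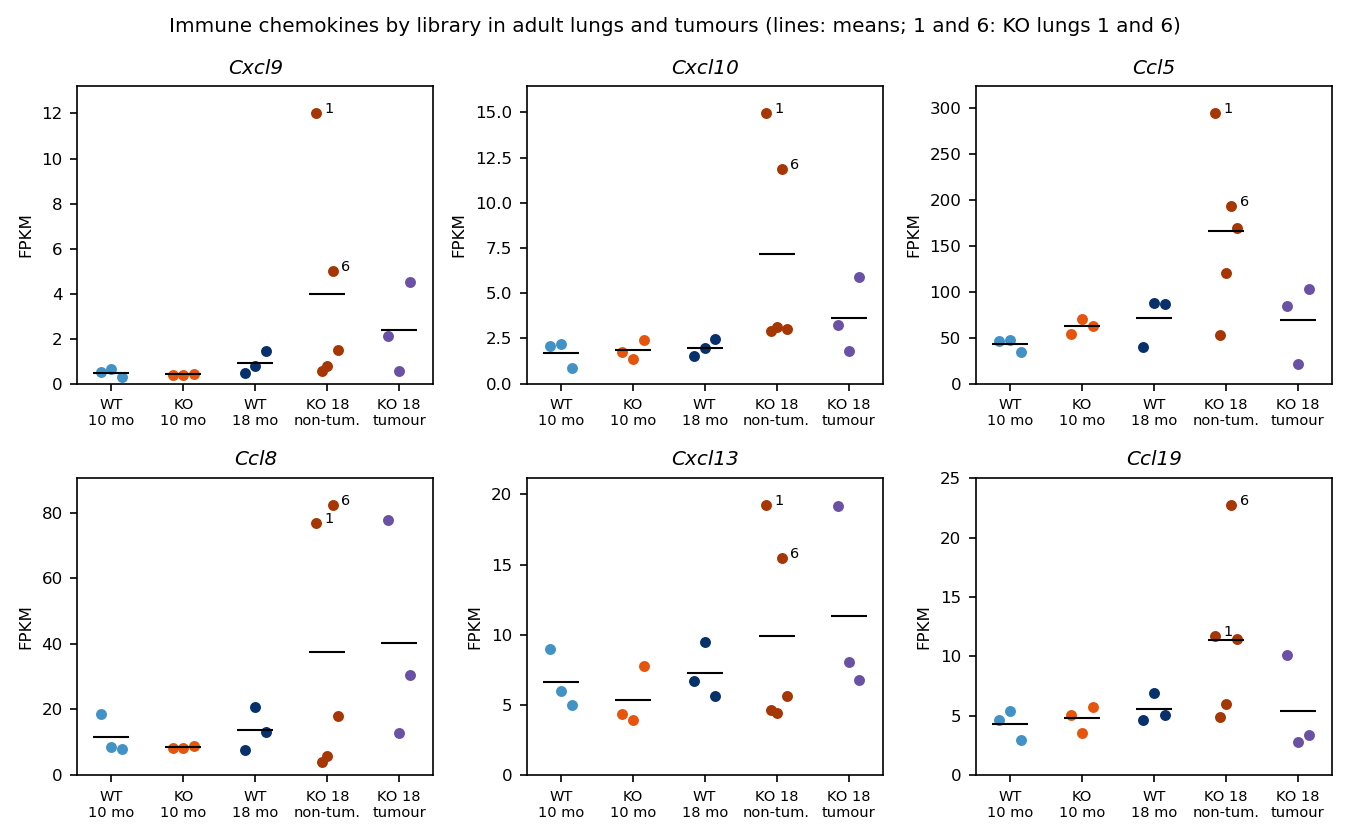
FPKM of Cxcl9, Cxcl10, Ccl5, Ccl8, Cxcl13 and Ccl19 by library in adult lungs and tumours, with 1 point per library and a line at each group mean. KO non-tumour lungs 1 and 6, marked by number, are the 2 highest non-tumour lungs for Cxcl9, Cxcl10, Ccl8 and Cxcl13, and for Cxcl9 the other 3 KO lungs, at 0.56 to 1.5, lie close to the WT lungs, at 0.48 to 1.45.

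Tumours held more of 6 chemokines than KO non-tumour lung, and 3 of the 6 belong to a single gene cluster. Cxcl15, Cxcl3, Cxcl17, Ccl6, Cxcl5 and Ccl17 were called higher and 0 lower among 31 tested members, against 13.8% of all genes called (7.2% higher, 6.6% lower). Cxcl3, Cxcl5 and Cxcl15 lie in the chromosome 5 cluster shown above. With the animal as a block, 0 were called, with adjusted p from 0.068 to 0.218 and the same direction for all 6. With only the 3 animals that gave both tissues, 0 were called, Cxcl15 coming closest (adjusted p = 0.0562), and Cxcl5 was not tested. The count was 2 without tumour 1 and 2 without KO non-tumour lung 2, Cxcl15 and Cxcl3 each time, and 3 without KO non-tumour lung 3, 6 or 7 (Cxcl15, Cxcl3 and Cxcl17). It was 4 without tumour 3, 5 without KO non-tumour lung 1, 9 without tumour 6 (8 higher, 1 lower) and 13 in the fit over all 23 libraries (11 higher, 2 lower). Shares of all genes called in these settings are not given here, so the changes are not shown to be particular to chemokines. The median log2 difference of the 31 was 0.31, beside -0.01 over all genes tested.

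Cxcl15 was at 1979, 2224 and 1366 FPKM in tumours 1, 3 and 6 and 753, 757, 648, 854 and 453 in KO non-tumour lungs 1, 2, 3, 6 and 7. Every tumour exceeded every lung of any age or genotype, the log2 rise was 1.52 ± 0.26 (adjusted p = 0.00752), and the ratios within animals 1, 3 and 6 were 2.63, 3.43 and 1.60. Cxcl17 was at 137, 84.4 and 72.7 FPKM in tumours and 62.8, 42.5, 35, 50.9 and 41.6 in KO lung, without overlap (log2 1.18 ± 0.26, adjusted p = 0.0196). Its ratios within animals were 2.18, 2.41 and 1.43. These 2 epithelial members moved together with type 2 epithelial markers, of which 8 of 10 were called higher and 0 lower. Their summed level was 59130 to 111300 FPKM in tumours and 27070 to 46550 in KO non-tumour lung, with no marker at 0, and the part of epithelial content in the rise was not tested. Club cell markers summed to 30730 to 46950 FPKM in tumours and 100800 to 169200 in KO non-tumour lung.

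The Cxcr2 ligands Cxcl3 and Cxcl5 rose from low levels. Cxcl3 was at 8.22, 1.82 and 0.80 FPKM in tumours and 0.38, 0.47, 0.18, 0.27 and 0.10 in KO lung, without overlap (log2 3.79 ± 0.76, adjusted p = 0.0127), and its ratios within animals were 21.6, 10.1 and 2.96. These values rest on 217, 41 and 16 reads in the tumours and 9, 10, 7, 5 and 2 in KO lung. Cxcl5 was at 3.31, 0.35 and 0.25 FPKM in tumours and 0.14, 0.16, 0.10, 0.24 and 0.29 in KO lung, and tumour 1 alone stood far above it (log2 2.97 ± 0.81, adjusted p = 0.041), and without tumour 1 the adjusted p was 0.352. The call was also lost without any 1 of the KO lungs (without lung 7 it was not tested), and DESeq2 gave Cxcl5 no adjusted p. Ratios within animals were 23.6, 3.50 and 1.04. Their neighbour Cxcl2 was at 2.98, 0.91 and 0.55 FPKM in tumours and 0.40, 0.48, 0.94, 0.25 and 0.19 in KO lung (log2 1.75 ± 0.65, adjusted p = 0.108), and Cxcl1 at 0.95, 0.15 and 0.55 and 1.02, 0.10, 0.20, 0.58 and 0.34 (adjusted p = 0.768). Cxcl2 was called higher in the fit over all libraries (adjusted p = 0.0185) and without tumour 6 (0.033). Beside these neutrophil attractants, 3 of 7 neutrophil markers tested were called lower and 0 higher, with S100a9 at -1.43 ± 0.23. They summed to 91.4 to 210 FPKM in tumours and 283 to 401 in KO lung. Of the 11 markers measured, 1 (Elane) was at 0 in all tumours, but it was also at most 0.05 FPKM in KO lung. Cxcr1 rose (17.7, 7.63 and 5.1 against 1.78, 2.04, 6.33, 1.45 and 1.94 FPKM; log2 1.98 ± 0.57, adjusted p = 0.0478), and no NF-kB response gene outside the family was called among 15 tested.

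Ccl6 and Ccl17 completed the list, with overlapping groups. Ccl6 was at 1277, 509 and 269 FPKM in tumours and 322, 185, 179, 224 and 118 in KO lung (log2 1.84 ± 0.48, adjusted p = 0.0354), and its ratios within animals were 3.96, 2.84 and 1.20. Ccl17 was at 85.4, 27.3 and 21.6 and 22, 10.8, 12.1, 18.4 and 11.9 FPKM (log2 1.70 ± 0.47, adjusted p = 0.0428), with ratios of 3.88, 2.25 and 1.17. In both genes tumour 1 was highest and tumour 6 inside the range of KO lung. Both calls were lost on leaving out tumour 1 (adjusted p = 0.133 and 0.188), tumour 3 (0.0623 and 0.0549), or any of KO lungs 2, 3, 6 and 7. Of 13 alveolar macrophage markers tested, 4 were called higher (Chil3, Mrc1, Itgax and Atp6v0d2) and Krt79 lower. Their sums were 1860 to 9553 FPKM in tumours and 939.8 to 1890 in KO lung, with none at 0, and their part was not tested. Chil3 alone was at 8324, 1251 and 1339 FPKM in tumours and 1095, 710, 627, 431 and 403 in KO lung. It made up much of these sums, which thus do not show a rise of the list as a whole.

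**Figure D5:**
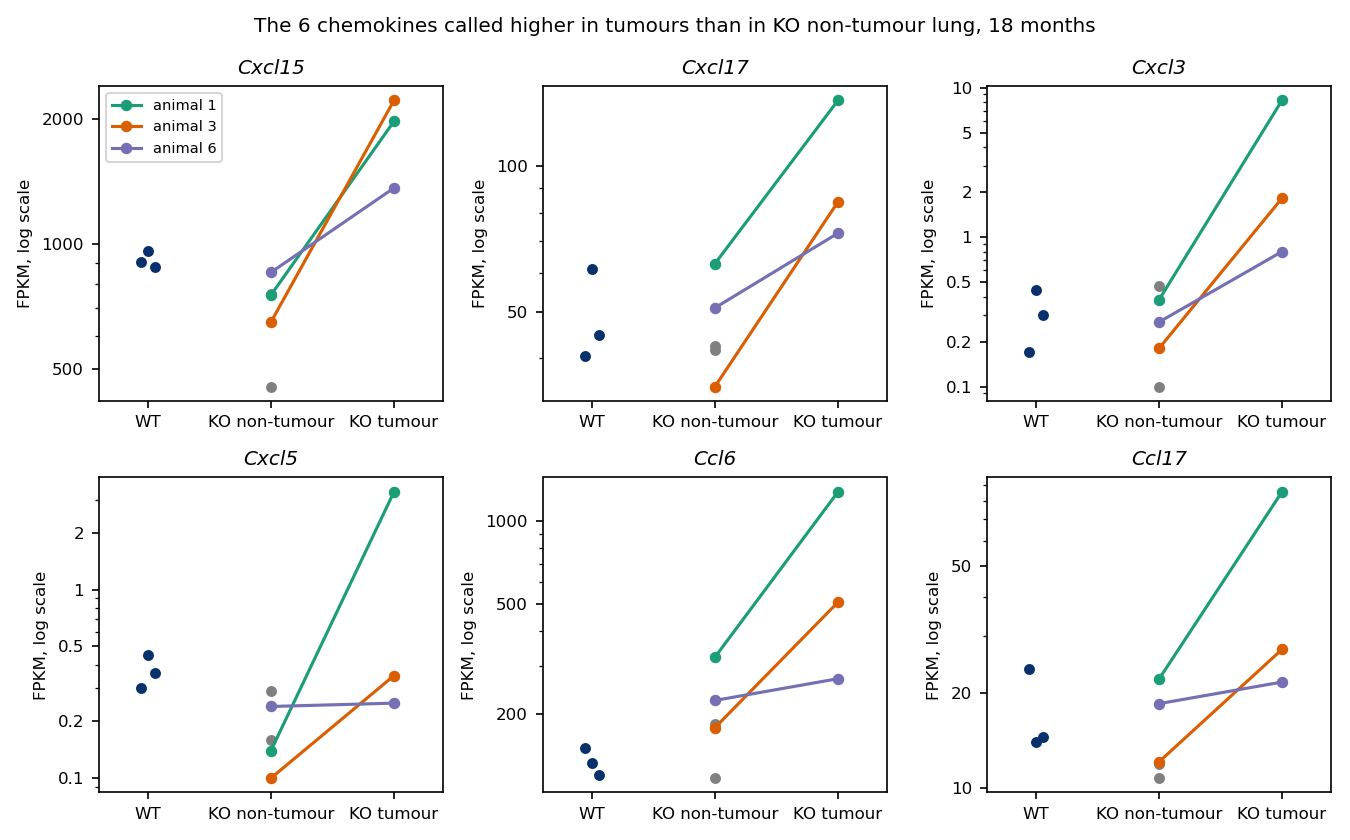
FPKM on a log axis of the 6 chemokines called higher in tumours than in KO non-tumour lung, at 18 months. Lines join the tissues of animals 1, 3 and 6, grey points are KO lungs 2 and 7 (lung 2 lies behind animal 1 for Cxcl15), and blue points are WT lungs; all lines rise, least in animal 6, where Cxcl5 goes from 0.24 to 0.25.

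In the comparison of tumours with KO non-tumour lung, Ccl5 was at 84.1, 21.5 and 103 FPKM in tumours and 295, 53.2, 121, 193 and 169.7 in KO lung (log2 -1.22 ± 0.57, adjusted p = 0.191) and was lower than its own lung in all 3 animals. The fit over all 23 libraries called it lower (adjusted p = 0.0428). Cxcl9, Cxcl10, Cxcl11, Ccl19, Xcl1, Cxcl14, Ccl25 and Cxcl1 were also below the animal's own lung in all 3. The share of all genes below it in all 3 was not counted. Cxcl11 had 1, 0 and 0 reads in the tumours, and the ratios of Cxcl1 were 0.93, 0.75 and 0.95. Of these genes Ccl25 came closest to a call (log2 -0.91 ± 0.32, adjusted p = 0.0911), which DESeq2 (adjusted p = 0.0448) and the fit over all libraries (0.00702) made. Cxcl14 was called lower without tumour 6 (-0.98, adjusted p = 0.0188). T and NK cell markers summed to 40.5 to 90.5 FPKM in tumours and 74.5 to 188 in KO lung, and 0 of 14 were called. Among receptors, Ackr4, which scavenges Ccl19 and Ccl25, fell by 1.44 on the log2 scale (2.0, 1.67 and 3.32 against 6.47, 8.08, 8.0, 5.26 and 5.14 FPKM; adjusted p = 0.0101), and Ccr3, the eotaxin receptor, by 1.89 (adjusted p = 0.046). With Cxcr1 these were the 3 receptors called among 22 tested.

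The 3 tumours differed among themselves. Tumour 1 held the highest level of all 23 libraries in 12 of 26 members with a mean of at least 1 FPKM, or 46.2%. It did so in 7.84% of the 13633 genes that reached the same mean. That mean includes tumour 1, so a high value there can bring a gene in. Cxcl3, with a mean of 1.06 FPKM, was at 8.22 FPKM in tumour 1. The 2 shares are therefore descriptions only. Ccl11 was at 65.3, 1.96 and 5.6 FPKM in tumours 1, 3 and 6, Ccl3 at 23.3, 3.92 and 2.46, Ccl9 at 30.9, 4.62 and 5.85 and Ccl22 at 27.4, 3.79 and 8.74. None of these 4 was called (adjusted p from 0.0609 to 0.209), and tumour 1 was the highest in each. In the fit over all 23 libraries all 4 were called higher (adjusted p from 0.00281 to 0.0381), and Ccl3 also by DESeq2 (0.00781) and without tumour 6 (0.0107). Tumour 3 was the highest of all libraries in Cxcl15 and in no other member.

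Against WT lung at 18 months, 3 of 30 tested members were called higher and 0 lower, with 15.4% of all genes called (7.87% higher, 7.5% lower). Cxcl2 was at 0.04, 0.12 and 0.08 FPKM in WT and 2.98, 0.91 and 0.55 in tumours, a ratio of 19.9 per depth (6 reads against 119, 95% binomial interval 8.88 to 55.3; adjusted p = 0.0283). Ccl6 rose by 2.41 ± 0.58 from 151, 133 and 121 FPKM (adjusted p = 0.0393) and Cxcl15 by 1.08 ± 0.26 from 907, 962 and 883 FPKM (adjusted p = 0.0399). All 3 were higher in every tumour than in every WT lung, as was Ccl4 without passing (log2 2.00 ± 0.54, adjusted p = 0.0539). Leaving out any 1 WT lung ended all 3 calls, leaving out tumour 6 raised the count to 9 (8 higher, 1 lower), and DESeq2 called 8 (7 higher, 1 lower). The share of all genes called in these settings is not given here, so the changed counts are not shown to be particular to chemokines. With the replicate number as a block, which does not pair these mice, 5 were called. Of 10 type 2 epithelial markers, 8 were called higher in this comparison as well. Receptors called included Cxcr1, Xcr1 and Ackr1, which were higher, and Cxcr2 and Ackr4, which were lower. Cxcr1 rose by 2.97 ± 0.63, while Cxcr2 changed by -1.15 ± 0.30 and Ackr4 by -1.40 ± 0.24. The tumour comparisons share the tumour libraries, so their calls are not independent of each other.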

How the data were processed

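Whole-tissue RNA of 23 samples in 7 groups was sequenced. Estimated counts per gene (RSEM, not whole numbers for some genes) and FPKM values were deposited by the authors. Per the submitters' processing notes, Trimmomatic 0.36, STAR 2.5.2b and RSEM 1.3.0 were used with mm10, and further settings are not given in the sources used here. Counts were rounded and tested with edgeR 4.0.16 (R 4.3.3): quasi-likelihood, TMM scaling, filterByExpr, each comparison on its own groups, Benjamini-Hochberg over all genes tested, called at adjusted p under 0.05. FPKM served to describe levels. Members and lists were chosen with earlier results of these data known. Named members were up to 8 called per direction with the smallest adjusted p and at least 1 CPM, or the 4 with the smallest p where fewer than 4 were called, and up to 5 called genes per other list. One item that the naming rule would include is not reported here. Tumour and lung with the same sample code (1, 3 and 6) were taken as pairs, and their deviations correlated at 0.36, 0.11 and 0.10. Among 28 replicate pairs no library was a copy of another (chi-square per degree of freedom at least 6.72). Alternatives were DESeq2 1.42.0, its size-factor scaling in edgeR, no count filter, a fit over all libraries, a replicate block, and each library left out. The subset of 3 animals was chosen after the data were seen. Intervals on read ratios cover counting error only.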

Additional observations from a re-analysis of the deposited data

Results flagged for a closer look

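Of 33 sets of chemokine values tested for a stray sample among the 5 KO non-tumour lungs of 18 months, 2 had one, where chance gives about 1 in 20. Ccl2, a monocyte attractant, was at 4.3 FPKM in KO lung 1, against 1.07 to 1.96 in the other 4, a gap of 0.72 of the whole range. Ccl24, an eosinophil attractant, was at 0.87 FPKM in KO lung 6, against 0.31 to 0.39 in the other 4, a gap of 0.86 of the range. KO lung 6 was still below each WT lung of 18 months in Ccl24 (0.96 to 1.33 FPKM).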

How the results depend on the processing

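With the replicate block, which pairs tumour and lung by sample code, the count of chemokines called between tumour and KO non-tumour lung went from 6 to 0, and in the 3 animals with both tissues it was also 0. The fit over all 23 libraries gave 13 (11 higher, 2 lower). Against WT lung the count of 3 became 5 with the replicate block, 8 with DESeq2 (7 higher, 1 lower) and 12 in the fit over all libraries (10 higher, 2 lower). DESeq2 called 2 in KO against WT at 10 months. Leaving out 1 library gave 2 to 9 calls for tumour against KO lung, 0 to 9 for tumour against WT, 0 to 1 for KO against WT at 10 months, 0 to 1 for WT at 18 against 10 months, 15 to 22 for WT maturation and 16 to 20 for KO maturation. The cause was not tested. These counts stand without the share of all genes called in the same setting, so a changed count is not shown to be particular to chemokines. The block changed the count of calls by over 1.5 times in no other comparison. Counted over the alternatives that gave the gene an adjusted p, values of single named members stayed on their side of the threshold 672 times. They lost the call 51 times, gained it 8 times and never changed direction. Low counts limit Cxcl1, Cxcl2, Cxcl3, Cxcl5, Cxcl11, Ccl1 and Xcl1, and in some groups also Ccl20, Ccl24, Ccl28 and Cxcl9.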

Other observations

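Chemokine genes outside the naming pattern were left out of the counts and shares above. Of 5 tested, Ppbp (platelet basic protein, also Cxcl7) was called lower in tumours than in KO non-tumour lung (log2 -1.42, adjusted p = 0.0452) and than in WT lung (-2.05, adjusted p = 0.0285). Between E19.5 and 10 months 3 of 5 were called higher in WT and 2 of 5 in KO, among them Ccl21a, a Ccr7 ligand of lymphatic endothelium, by 1.64 and 1.42.

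Genotype effects at 18 and 10 months differed most in Cxcl2 (3.28 ± 0.98, SE, log2) and Cxcl1 (3.03 ± 1.02), both with an adjusted p of 0.9999. KO lung 7 was the highest of the 8 non-tumour lungs at 18 months in 1 of 25 chemokines compared, or 4%, and in 26.0% of the 13444 genes compared.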
